A study of Mus musculus with 15 samples.

Results

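Cholesterol handling was followed through 30 genes in periprostatic white fat, the adipose tissue around the prostate, of 15 male C57BL/6J mice, 5 in each of 3 groups. The genes were chosen by symbol and form 4 parts. The synthesis arm has 17 enzymes, 8 of the mevalonate steps and 9 of the sterol steps. A further 5 genes sense sterol or carry it, 3 take up lipoprotein, and 5 serve efflux and storage. All 30 were found among the 23995 symbols of the deposited files.

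In the LFD group the diet had 10 kcal% fat (low-fat diet) and no pellet was given. Both HFD groups were fed 60 kcal% fat (high-fat diet). HFD placebo mice carried a placebo pellet under the skin, and HFD estradiol mice a pellet holding 0.25 mg of estradiol, an estrogen, made to release over 60 days. Feeding started when mice were 6 weeks old. Pellets followed after 12 weeks on the diet, and the mice were killed 8 weeks after that, at the age of 26 weeks. LFD mice had no implantation, so diet and pellet placement cannot be told apart between LFD and either HFD group. The numbers 1 to 5 name different mice.

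Cells make cholesterol from acetyl-CoA through mevalonate and a series of sterols. When membrane sterol is low, the carrier Scap escorts the transcription factor encoded by Srebf2 out of the endoplasmic reticulum, and the synthesis genes are switched on; Insig1 and Insig2 hold Scap back. Cholesterol leaves cells through the transporters Abca1 and Abcg1 onto lipoproteins, or is esterified by Soat1 and stored in droplets. Adipocytes hold much of the body's cholesterol, mostly unesterified, whereas lipid-laden macrophages store cholesterol esters.

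Each library was deposited as FPKM (fragments per kilobase, relative to the library's total) and was rescaled here by 1 factor. Levels below are these scaled FPKM values, which are per transcript length. Fold changes are differences in log2(scaled FPKM + 1), a scale that understates the change of low genes, and are given with the standard error (SE). A gene counts as changed at an adjusted p below 0.05, from limma with the Benjamini-Hochberg correction over all 5615 tested genes. Tested genes had a level of at least 1 in at least 5 libraries. Of the 30 genes, 23 passed this filter; Mvk, Mvd, Sqle, Tm7sf2, Dhcr7, Srebf2 and Stard4 did not.

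The FPKM sum per library ran from 34449 to 105910, and the entry Mir6236 took 10.2% to 53.1% of it. A level of 1 in a 2 kb transcript was roughly estimated at 20.6 to 40.2 fragments for LFD libraries. For HFD placebo libraries the estimate was 34.9 to 221, and for HFD estradiol libraries 36.8 to 96.7. By their file names the LFD libraries were all run on lane 5 of the sequencer and the HFD estradiol libraries all on lane 6, with 3 placebo libraries on lane 5 and 2, placebo 4 and 5, on lane 6. The 6 adipocyte markers were present in every library, with summed levels of 1152 to 1750 (LFD), 785 to 1324 (HFD placebo) and 1146 to 1638 (HFD estradiol). The 8 macrophage markers summed to 10.4 to 17.8, 38.8 to 108 and 19.9 to 36.6 in the same order. Prostate and epithelial markers summed to at most 1.87. Fewer cells of a type and less RNA per cell cannot be told apart in such bulk tissue.

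**Figure D1:**
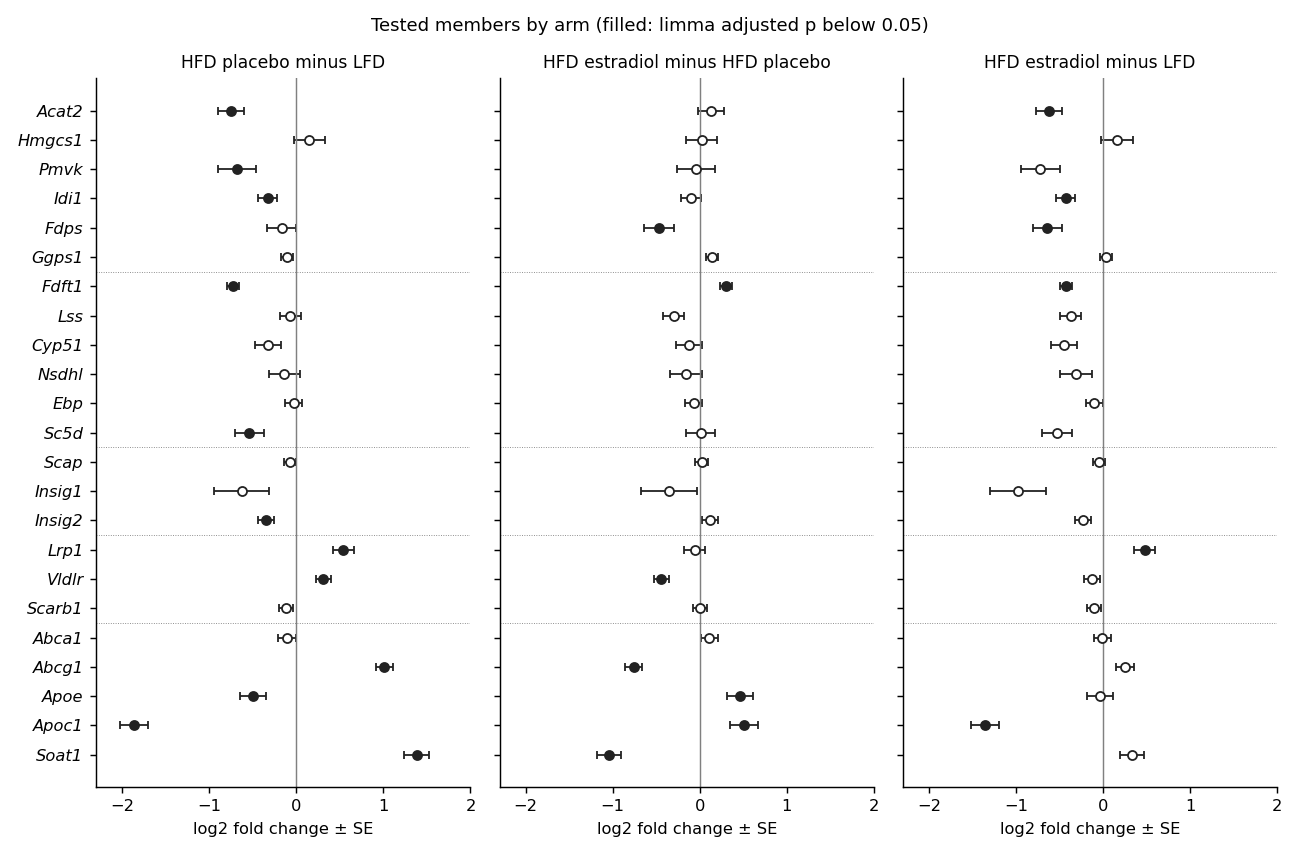
Log2 fold change (x axis, log2 of scaled FPKM + 1) with its SE for the 23 tested genes (y axis) in the 3 comparisons; dotted lines part the mevalonate steps, sterol steps, sensors, uptake, and efflux and storage. Filled points passed an adjusted p of 0.05. In HFD placebo against LFD, 11 of 12 synthesis genes lie left of 0, while Abcg1 and Soat1 lie farthest right.

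In HFD placebo against LFD, which asks how a fattening diet alters this depot, 12 of the 23 tested genes changed. Higher were Lrp1, Vldlr, Abcg1 and Soat1. Lower were Acat2, Pmvk, Idi1, Fdft1, Sc5d, Insig2, Apoe and Apoc1. These 12 are 52.2% of the tested members, against 43.3% of all tested genes called in this comparison, 21.3% higher and 22% lower. The groups did not overlap for 5 of the 23, against 27.6% of all tested genes that did not overlap. The share of members called is not far from the background, so the description below is of single genes and arms. The scaling set the split of directions: 4 members were higher and 8 lower here, against 6 and 0 in FPKM as deposited and 5 and 3 with a constant sum per library. Over all tested genes the higher share of calls was 49.2%, 99.4% and 91.5% in the same order.

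Of the 12 tested genes of the synthesis arm, 5 fell in HFD placebo, none rose, and 11 had a fold change below 0. These 5 are 41.7% of the 12, against 43.3% of all tested genes called and 22% called lower. The median fold change of the 12 was -0.25, against -0.01 over all tested genes. This direction depended on the scaling: with unscaled FPKM as deposited, in which the all-gene median moved by 0.77, only 1 of the 12 was below 0, and with a constant sum per library, where it moved by 0.29, 6 were. Relative to the median of all tested genes, the synthesis median stayed between -0.36 and -0.15 under every alternative run. Subtracting that median takes out most of the shift a scaling brings. The range therefore gives the arm's place among all tested genes, and not its direction.

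Fdft1, squalene synthase, the enzyme that commits the pathway to sterols, had the smallest adjusted p of the synthesis arm. Its levels were 1.35, 2.00, 1.86, 1.93 and 1.87 in LFD mice 1 to 5, and 0.587, 0.715, 0.856, 0.794 and 0.465 in HFD placebo mice 1 to 5. Every placebo library lay below every LFD library. The fold change was -0.73 (SE 0.07, adjusted p = 2.2e-06), and the LFD mean was 2.64-fold the placebo mean. In FPKM as deposited the change of Fdft1 was -0.06 and not called. Its exons overlap those of Ctsb on the other strand (Fdft1 lies at chr14:63145150-63179578 of GRCm38, minus strand), and the sources used here do not say how strand entered the authors' counting.

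Acat2, a cytosolic enzyme that joins acetyl-CoA units at the head of the pathway, fell next. Its levels were 2.59, 5.05, 3.35, 2.89 and 2.94 in LFD and 1.05, 1.73, 1.53, 2.16 and 1.40 in HFD placebo. The groups did not overlap, and LFD 2 stood highest. The fold change was -0.75 (SE 0.15, adjusted p = 9.6e-04). Acat2 has a close relative, Acat3, and the sources used here do not say how reads shared between them were assigned, so its level is uncertain. With FPKM as deposited its change was 0.14, the other direction, and not called.

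Pmvk, phosphomevalonate kinase, was at 4.48, 8.40, 7.73, 3.78 and 2.53 in LFD and at 2.31, 2.76, 2.57, 3.58 and 2.57 in HFD placebo. The placebo mice were close together, whereas LFD 2 and LFD 3 were far above LFD 5, which lay within the placebo range. The change was -0.68 (SE 0.22, adjusted p = 0.0222).

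Sc5d, a sterol desaturase near the end of the pathway, had the same layout, with 5.96, 11.2, 10.1, 8.44 and 5.31 in LFD and 4.76, 4.90, 5.18, 6.66 and 4.42 in HFD placebo. It fell by 0.54 on the log2 scale (SE 0.17, adjusted p = 0.0197).

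Idi1, which isomerises the building block of all isoprenoids, was at 0.920, 1.89, 1.75, 1.01 and 1.49 in LFD and at 0.747, 0.851, 0.996, 1.10 and 0.785 in HFD placebo. It fell by 0.33 (SE 0.11, adjusted p = 0.0241), with overlapping groups. Idi1 passed the filter only through LFD 2 to 5 and placebo 4, and with no filter the adjusted p was 0.0481. The calls of Pmvk, Sc5d and Idi1 were each lost without LFD 2 or without LFD 3 and within lane 5, where the adjusted p was 0.066 for Pmvk, 0.051 for Sc5d and 0.076 for Idi1. The Idi1 call was also lost without LFD 5, placebo 1 or placebo 5. All of them changed direction in FPKM as deposited, to 0.29 for Pmvk, 0.49 for Sc5d and 0.36 for Idi1.

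The other 7 tested synthesis genes did not pass the test in this comparison. They were Hmgcs1, which makes the HMG-CoA that enters the mevalonate steps, Fdps, Ggps1, Lss, Cyp51, Nsdhl and Ebp, with fold changes from -0.33 for Cyp51 (adjusted p = 0.091) to 0.15 for Hmgcs1 (adjusted p = 0.520). Hmgcs1 was the most abundant enzyme of the arm in every group, at 8.67 ± 1.97 in LFD, 9.69 ± 2.10 in HFD placebo and 9.90 ± 2.42 in HFD estradiol (SD, n = 5 each). Its groups overlapped throughout. Hmgcs1 was called higher in HFD placebo only in FPKM as deposited (1.20) and with a constant sum (0.56).

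Of the 5 synthesis enzymes below the tested level, Tm7sf2, a sterol reductase, was at 0.686, 0.401, 0.491, 0.211 and 0.445 in LFD and at 0.275, 0.232, 0.0964, 0.291 and 0.189 in HFD placebo. The difference in means was -0.230 (exact two-sided permutation test, p = 0.0317, not adjusted), and leaving out 1 library gave an exact p from 0.0159 to 0.063. Tm7sf2 shares exon sequence with Vps51 on its strand, and the difference was 0.0989 in FPKM as deposited. Mvk, Mvd, Sqle and Dhcr7 gave exact permutation p-values from 0.095 for Dhcr7 to 0.778 for Mvk in this comparison. In all, 21 such tests were made on the 7 low genes, and the smallest p that 5 mice against 5 can give is 0.0079.

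**Figure D2:**
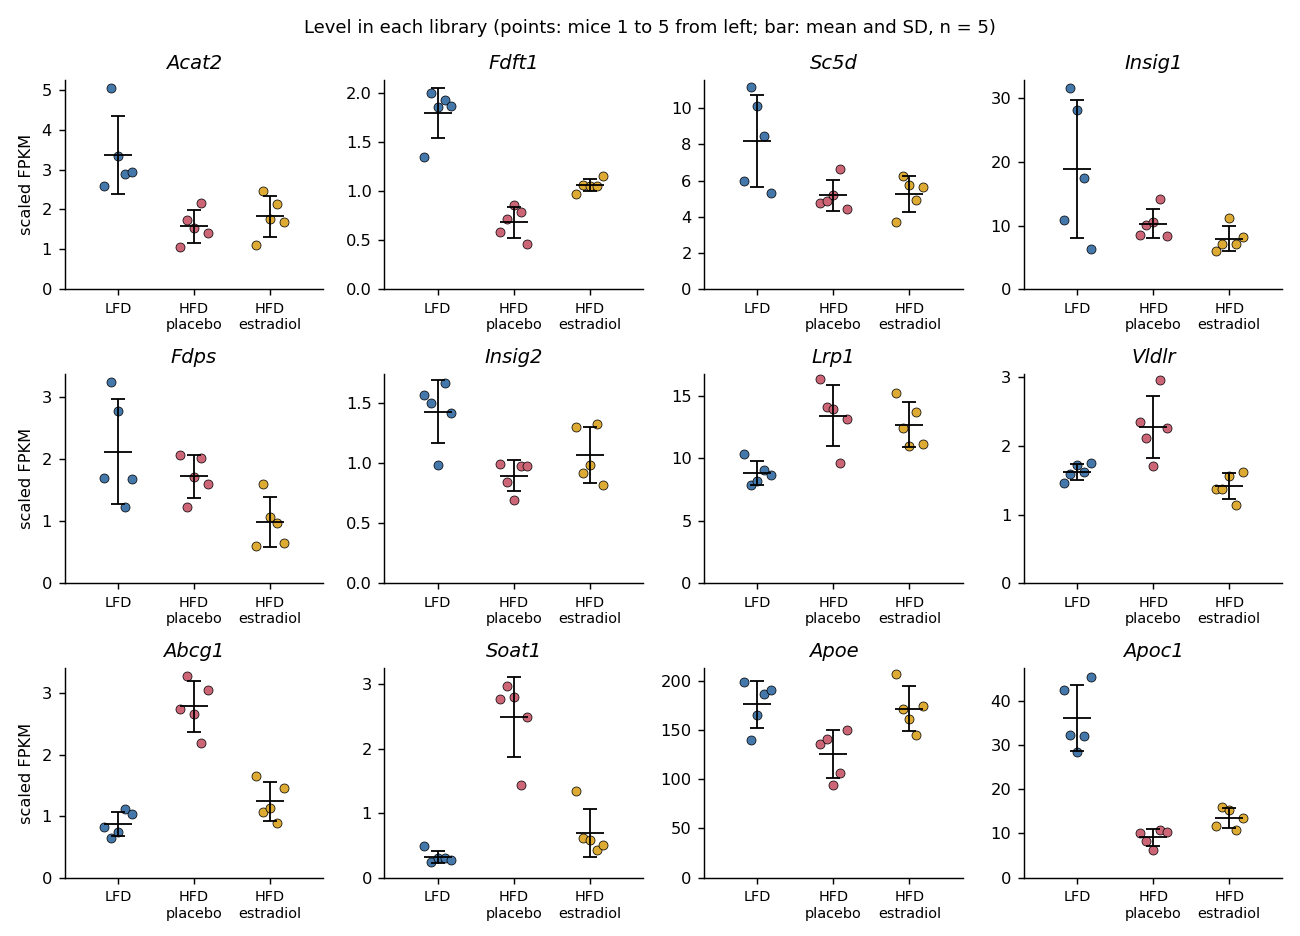
Scaled FPKM (y axis, from 0) of 12 genes in each library of the 3 groups (x axis), with mice 1 to 5 from left to right and the mean and SD of 5 mice. LFD mice are spread widely for Insig1, from 6.26 to 31.6, while Abcg1 and Soat1 of the 5 placebo mice lie above all other libraries.

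Among the sensors, Insig2 fell in HFD placebo and Insig1 did not pass the test. Insig2 was at 1.57, 1.50, 0.986, 1.67 and 1.42 in LFD and at 0.992, 0.845, 0.697, 0.981 and 0.976 in HFD placebo, so only LFD 3 lay among the placebo mice. Its change was -0.35 (SE 0.09, adjusted p = 0.0044); in FPKM as deposited it was 0.33 and not called. Insig1, itself a target of the pathway's transcription factor, was at 10.9, 31.6, 28.2, 17.5 and 6.26 in LFD and at 8.54, 10.1, 10.5, 14.1 and 8.31 in HFD placebo. The LFD mice covered a 5.05-fold range on both sides of the placebo mice. The change was -0.63 with an SE of 0.32 (adjusted p = 0.128); it was -0.94 and called without LFD 5 (adjusted p = 0.0089), and -0.40 and not called without LFD 2 (adjusted p = 0.319).

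Scap was even across mice, at 1.13, 1.22, 0.784, 1.12 and 1.30 in LFD and 0.913, 1.13, 1.02, 0.967 and 1.01 in HFD placebo, with a change of -0.07 (adjusted p = 0.447). Srebf2 averaged 0.536 ± 0.0580 in LFD, 0.661 ± 0.104 in HFD placebo and 0.496 ± 0.0871 in HFD estradiol (SD, n = 5). The placebo mean exceeded the LFD mean by 0.125 (exact permutation p = 0.056). Stard4, a carrier of sterol between membranes, was at most 0.407 in any library, with exact permutation p-values from 0.151 to 0.405.

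Of the uptake receptors, Lrp1 and Vldlr rose in HFD placebo. Lrp1, a large receptor that clears Apoe-bearing remnants, was at 10.3, 7.89, 8.20, 9.03 and 8.67 in LFD and at 16.3, 14.1, 13.9, 9.61 and 13.1 in HFD placebo. Only placebo 4 lay within the LFD range. The rise was 0.54 (SE 0.12, adjusted p = 0.0024) and was called under every alternative. Vldlr, which binds triglyceride-rich lipoproteins, was at 1.46, 1.59, 1.73, 1.62 and 1.75 in LFD and at 2.35, 2.12, 1.71, 2.96 and 2.27 in HFD placebo. It rose by 0.31 (SE 0.09, adjusted p = 0.0080). Within lane 5 the change of Vldlr was 0.21 and not called (adjusted p = 0.080).

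Scarb1, the high-density lipoprotein receptor, was at 2.35, 3.19, 2.60, 3.11 and 3.09 in LFD and at 3.04, 1.97, 2.86, 2.37 and 2.63 in HFD placebo. The groups lay across each other, with a change of -0.12 (adjusted p = 0.286).

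The efflux and storage genes moved in both directions: Abcg1 and Soat1 rose, Apoe and Apoc1 fell, and Abca1 did not pass the test. Soat1, which esterifies cholesterol for storage, was at 0.490, 0.249, 0.309, 0.313 and 0.282 in LFD. In HFD placebo it was at 2.77, 2.97, 2.80, 1.44 and 2.49. The lowest placebo library, placebo 4, was still far above the highest LFD library. The placebo mean was 7.59-fold the LFD mean, and the fold change on the log2 scale was 1.38 (SE 0.14, adjusted p = 2.1e-06). Soat1 (chr1:156424525-156474331, minus strand) overlaps no exon of another gene. It passed the filter through the 5 placebo libraries and 1 estradiol library, and with no filter the adjusted p was 1.2e-05.

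Abcg1, which moves cholesterol to high-density lipoprotein, was at 0.825, 0.641, 0.746, 1.12 and 1.03 in LFD and at 2.74, 3.27, 2.66, 2.18 and 3.05 in HFD placebo. The groups were well apart, with a 3.19-fold ratio of means and a log2 change of 1.01 (SE 0.10, adjusted p = 2.1e-06). Abca1, the transporter that loads apolipoprotein A-I, was between 5.81 and 7.91 in LFD and between 6.26 and 7.24 in HFD placebo, with a change of -0.11 (adjusted p = 0.371).

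Apoe, the main apolipoprotein made by fat and macrophages, was the most abundant of the 30 genes. Its levels were 199, 140, 165, 186 and 191 in LFD and 136, 141, 93.7, 106 and 150 in HFD placebo, with some overlap. It fell by 0.50 (SE 0.15, adjusted p = 0.0134), but in FPKM as deposited the change was 0.64 and not called. Apoc1, a small apolipoprotein whose gene lies 3448 bases from Apoe on chromosome 7, fell more. It was at 42.4, 32.3, 28.4, 32.0 and 45.4 in LFD and at 10.2, 8.32, 6.19, 10.7 and 10.4 in HFD placebo. The LFD mean was 3.94-fold the placebo mean, with a log2 change of -1.87 (SE 0.16, adjusted p = 7.8e-07); in FPKM as deposited the change of Apoc1 was -0.76 and not called (adjusted p = 0.132). Within each library the ratio of Apoc1 to Apoe, which does not depend on the scaling, was 0.172 to 0.237 in LFD and 0.0592 to 0.101 in HFD placebo.

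Most macrophage markers rose, as Soat1, Abcg1 and Lrp1 did, while Apoe and Apoc1 fell. In HFD placebo 6 of the 7 tested macrophage markers rose, among them Cd68, at 2.73 ± 0.658 in LFD and 31.6 ± 10.2 in HFD placebo (SD, n = 5), and none of the 8 was at 0 throughout a group. The adipocyte markers fell, 6 of 6. Of all tested genes, 21.3% were called higher and 22% lower. These marker calls are with the scaling used here. In FPKM as deposited the all-gene median moved by 0.77, and the changes of the markers there are not given. Placebo 4 had the lowest macrophage sum of its group, 38.8, the highest adipocyte sum, 1324, and also the lowest Soat1, Abcg1 and Lrp1. Placebo 3 had the highest macrophage sum, 108, but the highest of none of these genes: Soat1 was at 2.80, Abcg1 at 2.66 and Lrp1 at 13.9. Divided by the macrophage sum, Soat1 was 0.0184 to 0.0275 in LFD and 0.0258 to 0.0405 in HFD placebo, and Abcg1 was 0.0443 to 0.0709 and 0.0246 to 0.0561. The part of cell makeup in these changes was not tested.

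**Figure D3:**
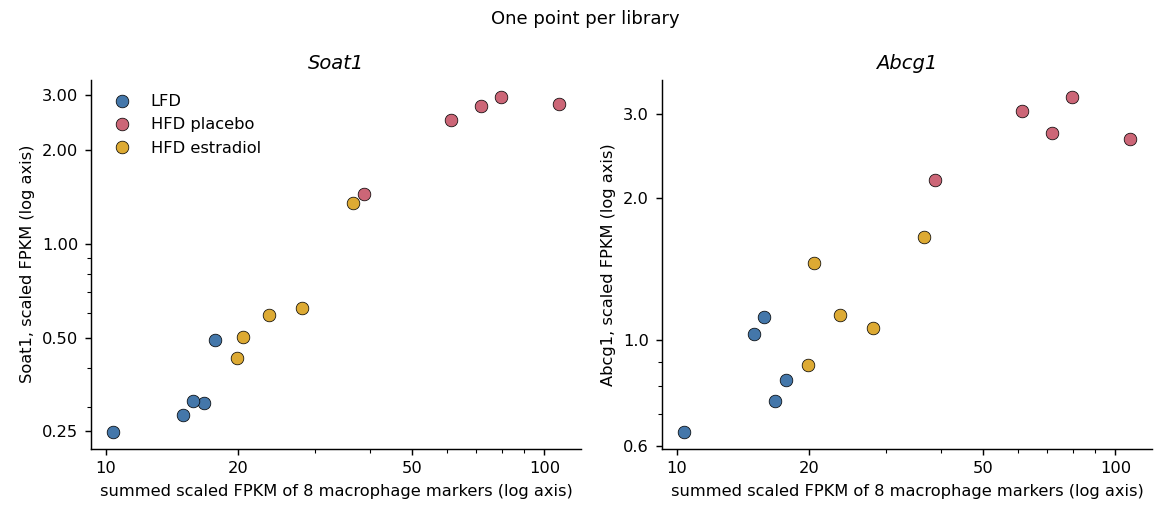
Scaled FPKM of Soat1 (left) and Abcg1 (right) on the y axis against the summed scaled FPKM of 8 macrophage markers on the x axis, both log axes, with 1 point per library. The 5 placebo libraries lie at the upper right of both panels; estradiol 1, with a marker sum of 36.6, lies beside placebo 4, at 38.8.

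In HFD estradiol against HFD placebo, which asks what estradiol does in mice on the fattening diet, 7 of the 23 tested genes changed. Fdft1, Apoe and Apoc1 rose. Fdps, Vldlr, Abcg1 and Soat1 fell. The 7 are 30.4% of the tested members, and 30.4% of all tested genes were called, 14.3% higher and 16% lower, so the genes as a group were called as often as any. Groups did not overlap for 4 of the 23, against 21.2% of all tested genes. The split of 3 higher and 4 lower members became 0 and 2 in FPKM as deposited and 0 and 4 with a constant sum, while the higher share of all calls went from 47.2% to 4.7% and 31.3%. This comparison shares its placebo libraries with the one before, so opposite signs in the 2 are not independent.

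Soat1 and Abcg1 fell with estradiol. Soat1 in HFD estradiol was at 1.35, 0.623, 0.590, 0.429 and 0.504, all below the lowest placebo value of 1.44, though estradiol 1 came near it. The change was -1.04 (SE 0.14, adjusted p = 4.7e-05), and -0.80 within lane 6 (adjusted p = 0.0369), where the 2 placebo libraries are placebo 4 and 5. Abcg1 was at 1.65, 1.06, 1.13, 0.889 and 1.46, again below every placebo library. It changed by -0.76 (SE 0.10, adjusted p = 5.1e-05), and by -0.69 within lane 6 (adjusted p = 0.0217). The macrophage sum was lower too, 5 of the 7 tested macrophage markers having fallen, against 16% of all tested genes. Estradiol 1 had the highest macrophage sum of its group and its highest Soat1 and Abcg1. Divided by the macrophage sum in HFD estradiol, Soat1 was 0.0215 to 0.0368, overlapping placebo, and Abcg1 was 0.0380 to 0.0707, reaching higher than the 0.0246 to 0.0561 of placebo. The part of cell makeup here was not tested.

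Vldlr fell with estradiol, to 1.38, 1.38, 1.56, 1.14 and 1.62 in mice 1 to 5, below every placebo mouse. The change was -0.44 (SE 0.09, adjusted p = 0.0011), and -0.58 within lane 6 (adjusted p = 0.0137). Lrp1 stayed near its placebo level, at 15.2, 12.4, 11.0, 13.7 and 11.1, with a change of -0.06 (SE 0.12, adjusted p = 0.746). Scarb1 was at 2.75, 2.51, 2.56, 2.44 and 2.57, with a change of 0.00 (SE 0.08, adjusted p = 0.976).

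Apoe and Apoc1 rose with estradiol, but each call was lost in 11 of 27 alternatives. Apoe was at 207, 171, 161, 145 and 174 in HFD estradiol and rose by 0.46 (SE 0.15, adjusted p = 0.0278), with estradiol 4 inside the placebo range. Apoc1 was at 11.6, 15.9, 15.4, 10.7 and 13.5 and rose by 0.51 (SE 0.16, adjusted p = 0.0242). In FPKM as deposited the changes were 0.12 for Apoe and 0.18 for Apoc1, and with a constant sum the adjusted p was 0.40 and 0.238. The call of Apoe was also lost without placebo 3 or 4 or without estradiol 1, 2 or 5, and that of Apoc1 without placebo 2 or 3 or without estradiol 2 or 3. Within lane 6 neither passed, at 0.43 for Apoe (adjusted p = 0.211) and 0.31 for Apoc1 (adjusted p = 0.270). The ratio of Apoc1 to Apoe was 0.0561 to 0.0956, inside the placebo range but for estradiol 1 at its low end. With the scaling used here, adipocyte markers rose with estradiol, 5 of 6, against 14.3% of all tested genes called higher. Whether the apolipoproteins followed these markers was not tested.

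Most of the synthesis arm did not pass the test with estradiol: of its 12 tested genes 1 rose and 1 fell. The share called was 16.7%, against 30.4% of all tested genes. The median change was -0.05, against 0.01 over all tested genes. Fdft1 rose to 0.974, 1.07, 1.06, 1.06 and 1.16, above every placebo library. The change was 0.30 (SE 0.07, adjusted p = 0.0059), and 0.35 within lane 6 (adjusted p = 0.0379). It was not called with FPKM as deposited (0.11) or with a constant sum (0.30).

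Fdps, which makes farnesyl diphosphate and shares exon sequence with Gm43738 on its strand, fell. It was at 2.07, 1.22, 1.71, 2.01 and 1.59 in HFD placebo and at 0.608, 1.60, 1.07, 0.976 and 0.657 in HFD estradiol, with overlap through estradiol 2. The change was -0.47 (SE 0.17, adjusted p = 0.0443), and the call was lost in 15 of 27 alternatives, 10 of which left out 1 library, and within lane 6 (-0.52, adjusted p = 0.091). Lss, which closes the sterol rings, was at 1.25, 1.06, 1.05, 1.23 and 0.907 in HFD placebo and at 0.555, 0.915, 0.768, 0.691 and 0.623 in HFD estradiol, a change of -0.30 that did not pass (adjusted p = 0.083). Only estradiol 2 reached the placebo range.

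Acat2, Pmvk, Sc5d and Idi1, lower in HFD placebo than in LFD, changed by 0.13, -0.04, 0.01 and -0.10 with estradiol, none of them called. Among the sensors, Insig2 changed by 0.12 (adjusted p = 0.330), Scap by 0.02 (adjusted p = 0.880) and Insig1 by -0.35 (adjusted p = 0.456). Srebf2 was lower with estradiol by 0.165 in mean level (exact permutation p = 0.0317, not adjusted, and 0.0159 to 0.063 without 1 library). Abca1 changed by 0.11 (adjusted p = 0.447).

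In HFD estradiol against LFD, 6 of the 23 tested genes changed, which is 26.1% of them, against 7.69% of all tested genes, 3.95% higher and 3.74% lower. Lrp1 was higher, and Acat2, Idi1, Fdps, Fdft1 and Apoc1 were lower. Groups did not overlap for 4 of the 23, against 8.05% of all tested genes. With a constant sum 3 were higher and 1 lower, and in FPKM as deposited none was called; the higher share of all calls was 51.4%, 95.0% with a constant sum and 100% as deposited. Lane and group cannot be told apart here, since all LFD libraries were on lane 5 and all HFD estradiol libraries on lane 6. With lane as a term, which rests on the placebo group alone, 2 genes remained, Lrp1 (0.83, adjusted p = 0.0328) and Apoc1 (-1.70, adjusted p = 0.0055). Without estradiol 1 the count was 2, and without LFD 2 it was 3.

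Apoc1 stood farthest from LFD, at -1.36 (SE 0.16, adjusted p = 1.2e-04), with every estradiol mouse below every LFD mouse. Fdft1 was at -0.43 (SE 0.07, adjusted p = 0.0022), Acat2 at -0.62 (SE 0.15, adjusted p = 0.0200), Fdps at -0.64 (SE 0.17, adjusted p = 0.0299) and Idi1 at -0.43 (SE 0.11, adjusted p = 0.0259). Lrp1 was higher by 0.48 (SE 0.12, adjusted p = 0.0276). With no filter, the calls of Acat2, Fdps, Idi1 and Lrp1 were lost. Over the 26 alternatives run for this comparison, the Acat2 call was lost in 6, Fdps in 12 and Idi1 in 11. Lrp1 was lost in 9, some of them leaving out a single mouse, Fdft1 in 3 and Apoc1 in 1. The median of the 12 tested synthesis genes was -0.43, against -0.00 over all tested genes, and 10 were below 0; with FPKM as deposited, whose all-gene median moved by 0.49, only 4 were. Soat1, Abcg1 and Apoe were at 0.33, 0.25 and -0.04, and none was called.

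Some mice stood at 1 end of their group for many of the synthesis genes; this was not tested. LFD 2 was the highest of the 5 LFD mice for 12 of the 17 synthesis genes, and estradiol 1 was the lowest of its group for 14 of the 17. Placebo 4 was the highest of its group for 7 and the lowest for none. Others were mixed: placebo 1 was the highest of its group for 5 and the lowest for 7. Insig1 was likewise highest in LFD 2, at 31.6, and in placebo 4, at 14.1, and lowest in estradiol 1, at 6.05. Between-mouse variation was widest in LFD for several enzymes: the coefficient of variation of Cyp51 was 46.4% in LFD, 13.0% in HFD placebo and 30.2% in HFD estradiol, and that of Lss was 43.4%, 13.0% and 19.6%. These spreads were not compared by a test. LFD 2 also had the lowest FPKM sum, the highest Mir6236 share, 53.1%, the smallest estimated depth, 20.6 fragments, and the highest Ucp1, a brown adipocyte marker, at 34.2. LFD 3, second in mean rank, had Ucp1 at 0.960 and a Mir6236 share of 45%. Placebo 4 had the highest Ucp1 of its group, 26.6, and a Mir6236 share of 10.2%. Estradiol 1 had the lowest adipocyte sum of its group, 1146. Their part in the spread was not tested.

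**Figure D4:**
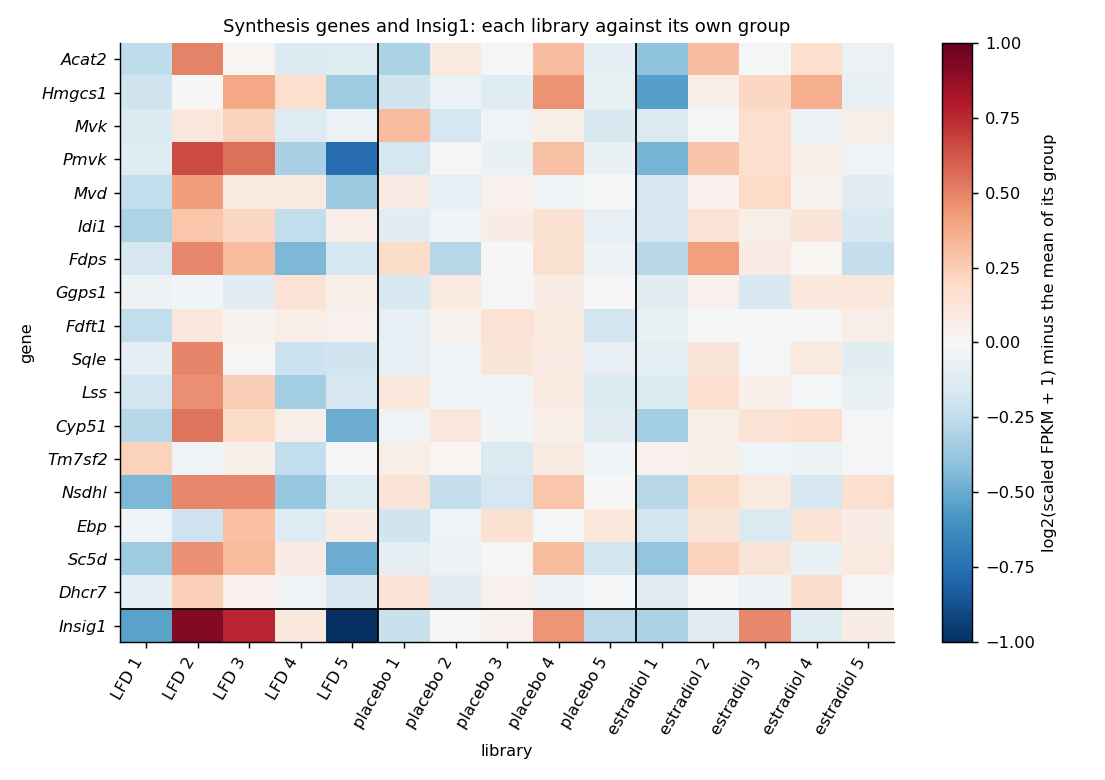
Each library (x axis) against the mean of its own group, in log2(scaled FPKM + 1), for the 17 synthesis genes and Insig1 (y axis); red is above and blue below the group mean. LFD 2 and LFD 3 are red and estradiol 1 is blue down most of the column; Insig1 of LFD 5, at 6.26, is the deepest blue.

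The 250 bases before the annotated starts of these genes were read for short motifs on both strands. RefSeq promoters (GRCm38.p6) were at hand for 23 of the 30 genes; Fdps, Fdft1, Sqle, Stard4, Scarb1, Abcg1 and Apoc1 had no entry. The box CCAAT, bound by NF-Y, a factor that works beside the sterol-responsive one at many synthesis genes, was in 18 of the 23, and in 13 of the 14 synthesis genes with an entry, Acat2 being the one without. It was in 37.5% of all 27025 genes of the table. The letters TCACNCCAC, a form of the sterol regulatory element, were in Hmgcs1 alone of the 23 and in 1.22% of all genes. A full estrogen response element, GGTCA followed after 3 bases by TGACC, was in none of the 23. GGTCA repeated after 4 bases was in none of them either. The element of the oxysterol receptors LXR spaces these letters differently, so it was not searched. A match describes letters and not binding, and a missing match says nothing of the factor.

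Of the synthesis promoters, 4 are shown because they cover both kinds of behaviour in HFD placebo, and that of Soat1 because it rose most; capitals mark CCAAT, its complement ATTGG, and in Hmgcs1 TCACCCCAC. Hmgcs1 (chr13:119690101-119690350, plus strand) and Nsdhl (chrX:72918271-72918520, plus strand) were not called. Pmvk (chr3:89454291-89454540, plus strand, 1 of its 2 entries) and Sc5d (chr9:42264301-42264550, minus strand) fell. The window of Soat1 is chr1:156474329-156474578, minus strand.
Hmgcs1: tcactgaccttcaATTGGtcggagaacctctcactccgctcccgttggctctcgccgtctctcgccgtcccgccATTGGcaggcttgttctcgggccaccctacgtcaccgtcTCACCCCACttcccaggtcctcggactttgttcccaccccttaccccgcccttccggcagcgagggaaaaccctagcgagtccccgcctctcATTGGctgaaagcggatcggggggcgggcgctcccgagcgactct
Nsdhl: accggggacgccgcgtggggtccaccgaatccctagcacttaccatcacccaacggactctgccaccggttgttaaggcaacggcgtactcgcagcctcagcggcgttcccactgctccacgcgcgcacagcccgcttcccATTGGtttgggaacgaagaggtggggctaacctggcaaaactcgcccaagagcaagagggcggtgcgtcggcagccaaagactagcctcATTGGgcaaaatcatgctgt
Pmvk: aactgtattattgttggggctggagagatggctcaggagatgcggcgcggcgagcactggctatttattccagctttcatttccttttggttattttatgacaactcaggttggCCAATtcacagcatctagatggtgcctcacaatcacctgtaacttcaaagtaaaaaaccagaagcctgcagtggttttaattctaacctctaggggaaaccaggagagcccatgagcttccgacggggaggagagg
Sc5d: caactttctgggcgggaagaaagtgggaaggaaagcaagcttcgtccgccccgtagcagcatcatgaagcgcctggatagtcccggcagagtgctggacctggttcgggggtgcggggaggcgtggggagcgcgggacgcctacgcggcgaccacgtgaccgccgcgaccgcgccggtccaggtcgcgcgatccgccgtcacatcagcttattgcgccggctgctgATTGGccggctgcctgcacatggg
Soat1: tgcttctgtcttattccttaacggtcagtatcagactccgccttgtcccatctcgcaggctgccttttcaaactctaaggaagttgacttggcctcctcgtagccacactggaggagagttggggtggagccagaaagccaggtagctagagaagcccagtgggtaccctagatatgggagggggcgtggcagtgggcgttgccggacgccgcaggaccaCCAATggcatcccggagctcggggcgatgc
The Hmgcs1 window holds the sterol element 137 bases before the start and CCAAT boxes at 237, 176 and 45 bases. Nsdhl has boxes at 109 and 20 bases, Pmvk at 136, Sc5d at 24 and Soat1 at 30. The other Pmvk entry holds no box. Acat2, Apoe, Lrp1, Abca1 and Scap hold none in any entry. Of these genes, Acat2 and Apoe fell in HFD placebo, Lrp1 rose, and Abca1 and Scap were not called. Whether a box goes with the direction of change was not tested.

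Other genes of the pathway, 43 in a list beside the 30, showed the lysosomal and ester-handling side. Of these, 23 were tested. In HFD placebo against LFD 7 rose and 6 fell, in HFD estradiol against HFD placebo 5 rose and 10 fell, and in HFD estradiol against LFD 2 were higher and 2 lower. These are 56.5%, 65.2% and 17.4% of the 23, against 43.3%, 30.4% and 7.69% of all tested genes. Lipa, the lysosomal acid lipase that frees cholesterol from its esters, averaged 2.50 ± 0.247 in LFD, 14.6 ± 3.75 in HFD placebo and 3.65 ± 1.38 in HFD estradiol (SD, n = 5). Its changes were 2.12 (adjusted p = 7.8e-07) and, with estradiol, -1.75 (adjusted p = 8.0e-06). Nceh1, a neutral cholesterol ester hydrolase, was at 0.242 ± 0.130, 2.12 ± 0.526 and 0.378 ± 0.200, changes of 1.32 (adjusted p = 1.6e-06) and -1.17 (adjusted p = 1.1e-05). Nceh1 passed the filter only through the 5 placebo libraries; with no filter the adjusted p was 7.8e-06 and 4.2e-05.

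Npc2, which hands cholesterol out of the lysosome, rose by 0.63 (adjusted p = 7.2e-06) and changed by -0.79 with estradiol (adjusted p = 4.0e-06). Pltp, the phospholipid transfer protein of plasma, rose by 1.82 (adjusted p = 1.0e-06) and changed by -1.17 (adjusted p = 8.2e-05). Sort1, a sorting receptor, was at 9.78 ± 0.772, 5.41 ± 0.591 and 8.16 ± 0.910, with changes of -0.75 (adjusted p = 8.4e-06) and 0.51 (adjusted p = 4.3e-04). Gramd1b, which carries cholesterol from the plasma membrane to the endoplasmic reticulum, was at 1.07 ± 0.109 in LFD, 1.10 ± 0.108 in HFD placebo and 0.426 ± 0.0702 in HFD estradiol. It changed with estradiol alone, by -0.56 against HFD placebo (adjusted p = 1.1e-05) and -0.54 against LFD (adjusted p = 7.8e-05), and by 0.02 between HFD placebo and LFD (adjusted p = 0.847). All LFD libraries and the estradiol libraries differ in lane. The macrophage sums given above were highest in HFD placebo, as were Lipa, Nceh1, Npc2 and Pltp. Npc2 was at 7.53 to 8.41 in HFD estradiol and at 8.49 to 10.5 in LFD, a change of -0.16 that was not called (adjusted p = 0.228). The macrophage sum was higher in HFD estradiol than in LFD. The part of cell makeup in these changes was not tested.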

How the data were processed

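Total RNA (RIN above 7) was rRNA-depleted and sequenced as stranded libraries, per the labels' protocols. The submitters' processing notes name STAR, Cufflinks and mm10. The authors deposited 1 FPKM table per library, with no counts. The sources used here do not say whether counting used strand. Exons of Fdps and Tm7sf2 overlap another gene on their own strand, and those of 7 members, Idi1 and Fdft1 among them, on the other strand.

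FPKM values were divided by a median-of-ratios factor per library (0.481 to 3.23, from 5874 genes with a mean FPKM of at least 1), and log2(value + 1) was fitted with limma 3.58.1 in R 4.3.3 (trend and robust variance, all 3 groups in 1 fit). The test covered the 5615 of 23995 symbols that reached a scaled FPKM of 1 in 5 or more libraries. The 7 genes below this had exact two-sided permutation tests (scipy 1.17.1 in Python 3.11.15). Libraries of a group correlated at 0.927 to 0.979, and no pair was identical. P-values set a group difference against the spread between libraries, each from a different mouse. That spread also holds differences in depth and, within HFD placebo, in lane. The fit was checked on simulated data.

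Members and lists were chosen with earlier results of these data known. Values in every library are given for the 3 members of each arm with the smallest adjusted p in HFD placebo against LFD or HFD estradiol against HFD placebo, and for others a result turns on; of the other pathway genes, the 6 with the smallest adjusted p are named. Positions are GENCODE vM21 (GRCm38), and promoters RefSeq.

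Depth was estimated from the spacing of low values in 1636 genes with 1 transcript, where 59.6% to 70.7% of low values lay within 2% of a multiple of up to 4 fragments. This criterion was chosen after its values were seen. The others tried gave 82.3 to 884 and 35.6 to 396 fragments at a level of 1 in 2 kb, in place of 20.6 to 221, so the estimate is rough. Alternatives covered the pseudocount, filter, scaling, lane, replicate block, libraries left out and Mir6236.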

Additional observations from a re-analysis of the deposited data

Results flagged for a closer look

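In 6 of the 90 sets of 5 mice examined (30 genes in 3 groups), 1 mouse stood apart from the other 4 by Dixon's criterion for 5 values, 0.71; chance alone flags about 1 in 20 groups. Hmgcs1 was at 13.4 in placebo 4, against 8.21 to 9.11 in the other placebo mice. Fdft1 was at 1.35 in LFD 1, against 1.86 to 2.00, and Soat1 in that mouse was at 0.490, against 0.249 to 0.313. Sqle was at 1.30 in LFD 2, against 0.408 to 0.652. Abca1 was at 5.81 in LFD 3, against 7.70 to 7.91. Soat1 was at 1.35 in estradiol 1, against 0.429 to 0.623 in the other estradiol mice.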

How the results depend on the processing

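Of the 25 calls of members, 5 held under all 27 alternatives (Lrp1, Abcg1 and Soat1 in HFD placebo against LFD, Abcg1 and Soat1 in HFD estradiol against HFD placebo) and 20 were lost under at least 1. Of the 44 uncalled values, 13 were called under some alternative and 32 took the other sign under some alternative. Some values that passed their test with the scaling used here or in FPKM as deposited turned direction in the latter. In HFD placebo against LFD these were Acat2 (0.14), Pmvk (0.29), Idi1 (0.36), Ebp (0.70, called), Sc5d (0.49), Insig2 (0.33) and Apoe (0.64). Tm7sf2 turned there as well (difference in level 0.0989). In HFD estradiol against LFD they were Idi1 (0.01) and Fdft1 (0.05). Values called in neither turned too as deposited, among them Insig1 (0.45) and Fdps (0.65) in HFD placebo against LFD. The median of all tested genes then moved to 0.77, -0.27 and 0.49 in HFD placebo against LFD, HFD estradiol against HFD placebo, and HFD estradiol against LFD, and the unadjusted synthesis medians were 0.55, -0.36 and 0.05.

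Members called in HFD placebo against LFD went from 12 to 6 in FPKM as deposited, and were 9 to 13 with 1 library left out. In HFD estradiol against HFD placebo they went from 7 to 4 with no filter, 2 as deposited, and 4 each with a constant sum, with lane as a term and within one lane; leaving out 1 library gave 4 to 8, with 4 without placebo 3. In HFD estradiol against LFD they went from 6 to 2 with no filter, 0 in limma as deposited (2 at an unadjusted p under 0.05), 2 with lane as a term and 2 without the library of highest Mir6236 share in each group; leaving out 1 library gave 2 to 8. That last alternative and a constant sum without Mir6236 were chosen after seeing the data.

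Arm medians relative to all tested genes moved in HFD placebo against LFD with a pseudocount of 0.1 to -0.59 for sensors and 0.46 for uptake, and to 0.15 for efflux and storage as deposited. In HFD estradiol against LFD a pseudocount of 0.1 gave -0.67 for synthesis and -0.38 for sensors, and in HFD estradiol against HFD placebo uptake was -0.21 without placebo 4 and 5. The cause was not tested. With the replicate number as a block, 13, 7 and 9 members were called in the 3 comparisons; the numbers name different mice, same-numbered mice correlated at -0.21 to 0.36, and they were not taken as pairs.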
